A study of Homo sapiens with 8 samples.

Results

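The genes described here are 9 members of the lysyl oxidase, laminin and integrin families, chosen by name out of 19785 protein-coding genes: LOXL4, LOX and LOXL2, the laminin chains LAMA3 and LAMB3, and the integrin subunits ITGA2, ITGA6, ITGB1 and ITGB4. CUT&Tag, in which an antibody directs a transposase to cut and tag the DNA next to a histone mark, was run for histone H3 lysine 23 succinylation (H3K23su) and lysine 27 acetylation (H3K27ac) in HCT15, a long-established cell line from a human colorectal tumour. Parental cells (HCT15-Pa) were labelled as treated with DMSO, the solvent, and 5-fluorouracil-resistant cells (HCT15-FR) as treated with 20 μg/ml 5-FU, a pyrimidine analogue used in chemotherapy. The study's methods state that HCT15-FR cells spent some days in drug-free medium before experiments, which the labels do not mention. Each line and mark had 2 libraries, 8 in all, and nothing in the labels says that the replicates came from separate cultures, so their spread may be technical. Line and drug exposure differ together and cannot be told apart, and HCT15-FR is represented by a single derived line.

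Lysyl oxidases are secreted copper enzymes that oxidize lysine side chains of collagen and elastin and so start the cross-linking of the extracellular matrix. Laminins are heterotrimers of an alpha, a beta and a gamma chain that form the mesh of basement membranes; LAMA3 and LAMB3 encode the alpha and beta chains of laminin-332, on which epithelial cells rest. Integrins are transmembrane alpha-beta pairs that bind these matrices: ITGA2 with ITGB1 binds collagen, ITGA6 with ITGB1 or ITGB4 binds laminin, and the ITGA6 and ITGB4 pair anchors hemidesmosomes, the junctions that tie colon and skin epithelium to the basement membrane. H3K27ac marks active promoters and enhancers, and H3K23su is a less studied acyl mark of the same histone tail.

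The files gave called peaks, each with a score, the −log10 of the P value from MACS2, and no read counts. A region is a set of overlapping peaks of a mark, merged over its 4 libraries. It was called FR-only when peaks were present in each HCT15-FR library and absent from each HCT15-Pa library, Pa-only in the reverse case, and shared when all 4 had a peak. A locus is a gene with 50 kb on either side, and a promoter window lies within 2 kb of the start (TSS) of a protein-coding transcript in the annotation on hg19. The 9 genes have 10 windows, because LAMA3 has a second promoter 183.6 kb inside the gene. The loci held 153 of 122500 H3K23su regions and 164 of 133786 H3K27ac regions. A missing peak means that none passed the authors' threshold, not that the mark was absent, and bulk libraries cannot tell more marked cells from more signal per cell.

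The stretches below are examples from regions called in a single line. They come from FR-only regions near a promoter or at both marks, and from Pa-only H3K23su regions at LAMA3 and LOX. Not every such region is shown. The FR-only region of both marks in LOXL2 intron 3, with forkhead and TEAD matches, is left out. So are the Pa-only H3K23su regions in ITGA6 intron 11 and LAMA3 introns 12 and 48, which had no match within 200 bp of their midpoints. They were read from hg19 on the strand of the gene, 5′ to 3′, and capitals mark matches to 4 motifs on either strand. The letters searched for AP-1 were TGACTCA on a strand or its reverse complement. Those searched for forkhead factors were TGTTTAC in the same way. For GATA factors they were AGATAA on either strand, and for TEAD factors the search used GGAATG on either strand. The first pair comes from LOXL4 intron 1, in the FR-only regions nearest to its promoter, at chr10:100027397-100027546 and chr10:100025986-100026135 on the minus strand.
LOXL4 intron 1, promoter-proximal: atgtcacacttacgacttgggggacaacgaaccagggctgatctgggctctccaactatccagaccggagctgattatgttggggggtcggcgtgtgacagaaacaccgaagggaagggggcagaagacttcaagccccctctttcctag
LOXL4 intron 1, distal: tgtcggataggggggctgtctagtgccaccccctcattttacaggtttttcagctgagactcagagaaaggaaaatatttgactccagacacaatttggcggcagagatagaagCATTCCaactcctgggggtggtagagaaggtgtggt
The next pair lies about 47 kb upstream of LOXL4, between genes, at chr10:100074424-100074573 and chr10:100074767-100074916 on the minus strand, where both marks had an FR-only region. The H3K27ac region there lies wholly within the H3K23su region. The stretch labelled for H3K27ac is thus in the regions of both marks, and the one labelled for H3K23su lies mostly beyond the H3K27ac region.
LOXL4 upstream, H3K27ac part: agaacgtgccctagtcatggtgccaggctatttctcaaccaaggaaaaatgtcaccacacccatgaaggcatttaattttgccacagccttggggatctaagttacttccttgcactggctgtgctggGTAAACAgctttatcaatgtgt
LOXL4 upstream, H3K23su part: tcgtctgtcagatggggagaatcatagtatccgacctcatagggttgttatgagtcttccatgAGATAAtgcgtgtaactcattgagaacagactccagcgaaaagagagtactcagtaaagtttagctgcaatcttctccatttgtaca
The following 3 are from the FR-only H3K23su regions in LAMB3 intron 3 (chr1:209823010-209823159, minus strand), in ITGA2 intron 1 (chr5:52304658-52304807, plus strand) and 18.8 kb upstream of ITGA6 (chr2:173273246-173273395, plus strand).
LAMB3 intron 3: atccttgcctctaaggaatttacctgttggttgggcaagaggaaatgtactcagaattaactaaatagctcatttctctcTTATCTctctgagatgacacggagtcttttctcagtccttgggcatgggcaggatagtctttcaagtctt
ITGA2 intron 1: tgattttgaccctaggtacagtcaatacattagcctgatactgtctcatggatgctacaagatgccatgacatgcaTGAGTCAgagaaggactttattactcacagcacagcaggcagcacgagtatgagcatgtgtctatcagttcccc
ITGA6 upstream: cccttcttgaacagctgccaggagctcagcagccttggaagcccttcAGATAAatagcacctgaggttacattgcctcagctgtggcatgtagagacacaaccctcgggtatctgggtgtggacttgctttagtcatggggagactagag
The last 2 are from the Pa-only H3K23su regions in LAMA3 intron 11 (chr18:21359798-21360097, plus strand) and 21.1 kb upstream of LOX (chr5:121435111-121435260, minus strand).
LAMA3 intron 11: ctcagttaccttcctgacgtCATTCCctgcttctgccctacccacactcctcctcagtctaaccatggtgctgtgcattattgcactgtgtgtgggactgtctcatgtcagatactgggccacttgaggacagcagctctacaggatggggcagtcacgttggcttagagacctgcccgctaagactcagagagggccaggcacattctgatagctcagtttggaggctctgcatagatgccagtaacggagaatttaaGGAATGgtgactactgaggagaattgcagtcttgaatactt
LOX upstream: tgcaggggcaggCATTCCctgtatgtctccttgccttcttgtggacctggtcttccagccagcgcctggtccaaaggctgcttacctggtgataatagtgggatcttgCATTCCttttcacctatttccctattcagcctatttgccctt

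None of the 4 motifs was matched in the stretch nearest to the LOXL4 promoter, while the more distal one had a TEAD match, and the upstream pair had a forkhead and a GATA match. The ITGA2 stretch held an AP-1 match, and the LAMA3 and LOX stretches held 2 TEAD matches each. These windows were placed by hand, and the LAMA3 one is 300 bases long against 150 for the others, so what a stretch holds depends on its window. Within 200 bp of the midpoints but outside the stretches, the LOX region had an AP-1 match and the ITGA2 and ITGA6 H3K23su regions each had a GATA match. Counted within 200 bp of the midpoints, on both strands, 2 of the 16 FR-only H3K23su regions at the loci had an AP-1 match, 1 forkhead, 4 GATA and 3 TEAD. The same letters occurred in 21.0%, 11.5%, 23.3% and 24.0% of all 9735 FR-only H3K23su regions, and in 13.0%, 6.73%, 16.1% and 22.2% of all H3K23su regions. Of the 17 FR-only H3K27ac regions, 2 had AP-1, 4 forkhead, 7 GATA and 7 TEAD letters, where 24.1%, 13.1%, 25.6% and 24.0% of all 12147 such regions had them. The Pa-only H3K23su regions numbered 5, of which 1 had an AP-1 and 2 a TEAD match and none a forkhead or GATA match, where the shares of all 6143 Pa-only H3K23su regions were 11.7% for AP-1, 24.0% for TEAD, 5.66% for forkhead and 13.9% for GATA. A match is a run of letters only, and regions of the 2 marks that overlap share their letters.

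The peak lists held 65364 to 68365 H3K23su peaks and 70600 to 76676 H3K27ac peaks per library. The HCT15-FR lists covered 1.19 times as much sequence as the HCT15-Pa lists for each mark (39.4 to 40.0 against 33.0 to 33.5 Mb for H3K23su, 46.3 to 46.6 against 38.8 to 39.5 Mb for H3K27ac). This is a shift of 0.26 and 0.25 on the log2 scale, so lengths are also given scaled to the total of their own list. Of 10 colon epithelium markers, 7 had an H3K23su peak and 8 an H3K27ac peak at a promoter in all 4 libraries. KRT20 and CDX1 had none in HCT15-Pa, and CDX2 had an H3K23su peak in 1 library. Of 7 markers of blood, endothelium and stroma found in the annotation, 5 had no H3K23su and 4 no H3K27ac promoter peak in any library, and COL1A1, a fibroblast collagen, had an H3K27ac peak in all 4.

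LOXL4 stood out among the 9 genes by its promoter, where both marks covered more sequence in both HCT15-FR libraries, whereas LAMA3 had less covered length in both at its first promoter. The study had already named LOXL4, from these libraries, among upregulated genes at regions of gained H3K23su, so the LOXL4 pattern is not an independent result. Around the LOXL4 TSS, H3K23su peaks covered 633 and 562 bp in HCT15-Pa and 1775 and 2136 bp in HCT15-FR, a ratio of 3.27. H3K27ac peaks covered 501 and 612 bp in HCT15-Pa and 1826 and 1967 bp in HCT15-FR, a ratio of 3.41. The lines did not overlap for either mark. Over all windows with a peak, both HCT15-FR libraries lay above both HCT15-Pa libraries in 41.4% for H3K23su and 31.1% for H3K27ac, and in 18.8% for both marks at once. Scaled to list length, the LOXL4 ratios were 2.75 and 2.87. Leaving out each library in turn gave H3K23su ratios of 2.97 to 3.57 and H3K27ac ratios of 3.10 to 3.79. With 2 libraries against 2, the smallest 2-sided p that the exact permutation test can give is 0.333, which is the value obtained here and for every other gene whose lines did not overlap, so no single difference could pass 0.05.

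**Figure D1:**
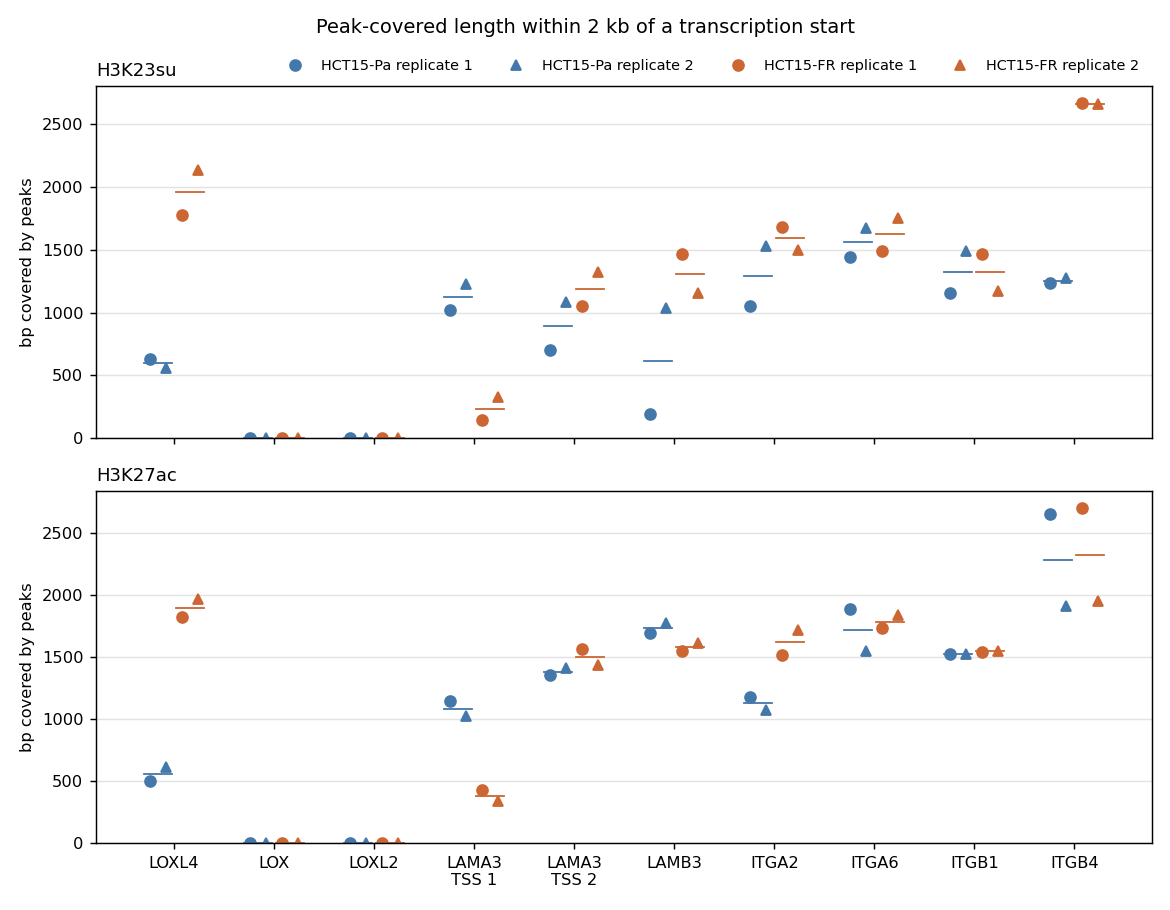
Sequence covered by peaks (bp, vertical axis) within 2 kb of each TSS of the 9 genes for H3K23su (top) and H3K27ac (bottom); each point is a library and each short line the mean of the 2 libraries of a line. LOXL4 lay at 562 to 633 bp in HCT15-Pa and 1775 to 2136 bp in HCT15-FR for H3K23su, the first LAMA3 promoter was lower in HCT15-FR for both marks, and LOX and LOXL2 had no peak.

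The 3 lysyl oxidase genes carried different patterns. LOXL4, an enzyme with scavenger receptor domains in addition to the catalytic domain, had 5 FR-only H3K23su regions and 3 FR-only H3K27ac regions, and no Pa-only region of either mark. Its promoter had 2 FR-only regions of each mark. The one at the TSS spanned chr10:100027082-100028011 for H3K23su, in intron 1 at its midpoint, with scores of 6.11 and 5.16 in HCT15-FR replicates 1 and 2. These ranked at the 78.7th and 63.9th percentiles of their own lists, where 100 is the strongest peak. The matching H3K27ac region, chr10:100027125-100027941, had scores of 4.53 and 5.85, at the 45.8th and 65.2nd percentiles. The other region lay 1.79 kb into the gene at chr10:100025720-100026596, with H3K23su scores of 5.14 and 4.16, and its H3K27ac counterpart at chr10:100025767-100026382 scored 6.49 and 4.57. These ranked at the 63.9th and 36.2nd percentiles for H3K23su and at the 70.8th and 46.8th for H3K27ac. No HCT15-Pa peak of the same mark touched any of these promoter regions. With the stronger 50% of each list, the FR-only call at the LOXL4 promoter held for H3K23su but not for H3K27ac.

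Just upstream of the LOXL4 promoter the picture differed. At 1.46 kb before the TSS, chr10:100029000-100029823 was shared for H3K23su, with 633 and 562 bp covered in HCT15-Pa and 535 and 603 bp in HCT15-FR. H3K27ac was shared there too, with scores of 7.99 and 5.97 in HCT15-Pa and 6.84 and 7.64 in HCT15-FR. So the added H3K23su length in HCT15-FR lay mainly downstream of the TSS, and the upstream H3K23su peak was of like length in both lines. The upstream H3K27ac peak covered 501 and 612 bp in HCT15-Pa and 636 and 725 bp in HCT15-FR. For H3K27ac, some of the added length thus lay upstream too.

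**Figure D2:**
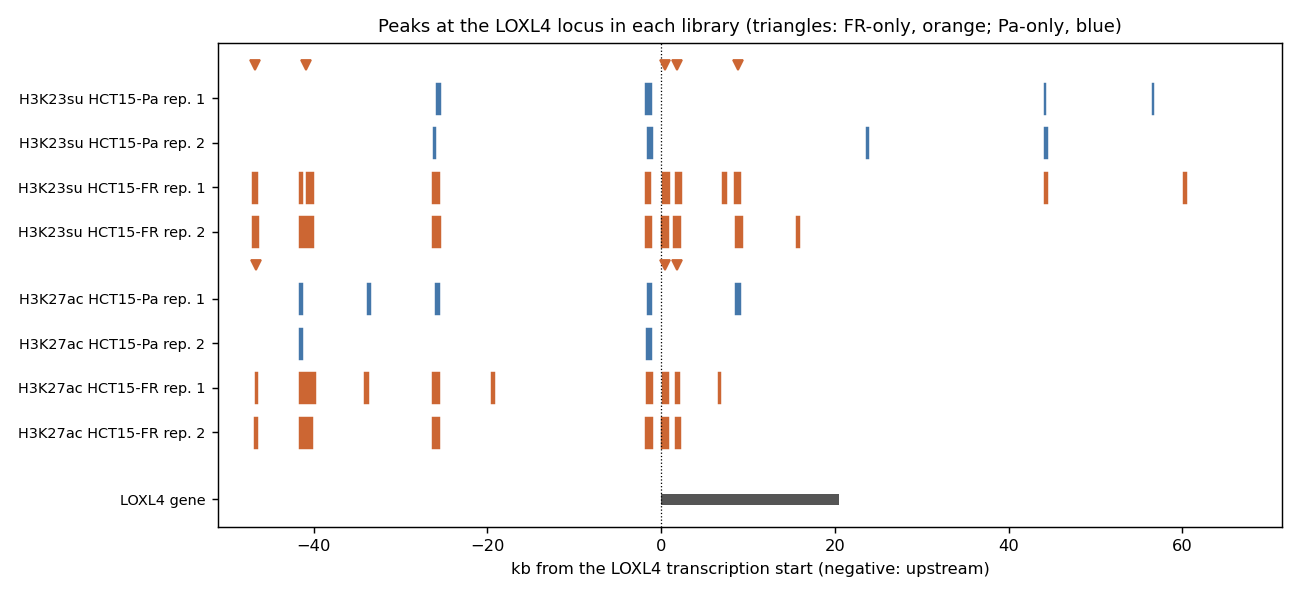
Peaks at the LOXL4 locus in each of the 8 libraries, by distance from the TSS (horizontal axis, kb; negative is upstream), with triangles over FR-only regions. All 4 HCT15-FR libraries had peaks just downstream of the TSS and about 47 kb upstream where no HCT15-Pa library had one, and all 8 had the peak 1.46 kb upstream of the TSS.

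Farther from LOXL4, an FR-only H3K23su region 40.9 kb upstream (chr10:100068027-100069648, between genes) had the highest-ranking peak of the locus, with scores of 7.96 and 5.76 and 1168 and 1612 bp covered in HCT15-FR. H3K27ac was listed there in all 4 libraries, in peaks 409 and 386 bp wide in HCT15-Pa and 1819 and 1525 bp wide in HCT15-FR. At 46.8 kb upstream, chr10:100074407-100075011 was FR-only for H3K23su (599 and 605 bp covered), and H3K27ac had an FR-only region within it (298 and 380 bp). The remaining FR-only H3K23su region lay in intron 5 of 14, at chr10:100018691-100019553, with scores of 3.87 and 4.48. H3K27ac had a peak there in HCT15-Pa replicate 1, of 496 bp and a score of 3.30, and in no other library.

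Over the whole LOXL4 locus, H3K23su peaks covered 1.37 and 1.26 kb in HCT15-Pa and 6.62 and 6.64 kb in HCT15-FR. H3K27ac peaks covered 2.16 and 0.998 kb in HCT15-Pa and 5.71 and 4.87 kb in HCT15-FR. HCT15-FR thus exceeded HCT15-Pa by 5.31 kb for H3K23su and 3.71 kb for H3K27ac, ratios of 5.03 and 3.35, and the order held after scaling (4.65 and 3.16 kb). The Benjamini-Hochberg adjusted p over the 18 tests of genes and marks was 0.545 in the exact permutation test, the lowest value that any gene had.

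LOX, the founding enzyme of the family, had no peak of either mark within 2 kb of a TSS in any of the 8 libraries, and its locus was nearly bare. H3K23su peaks covered 0.988 and 1.13 kb of the 115.2 kb locus in HCT15-Pa and 0.146 and 0.483 kb in HCT15-FR. H3K27ac peaks covered 0.363 and 0.513 kb in HCT15-Pa and 0 and 0.274 kb in HCT15-FR. LOX was the 1 locus of the 9 where both HCT15-FR libraries lay below both HCT15-Pa libraries, for each mark, where 13.2% and 13.7% of loci with a peak did so. Its only region called in a single line was the Pa-only H3K23su region 21.1 kb upstream, chr5:121434757-121435404, with scores of 4.93 and 4.75. H3K27ac peaks at the same place scored 6.53 and 6.16 in HCT15-Pa and 3.25 in HCT15-FR replicate 2, and none was listed in HCT15-FR replicate 1. These lengths rest on 0 to 3 peaks per library, and with 10 kb on either side in place of 50 kb the H3K23su difference of −0.744 kb became 0.0715 kb.

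LOXL2, which oxidizes collagen IV of basement membranes, likewise had no peak in its promoter window in any library. At the more distal 5′ end of its gene record, which incomplete transcripts define, a peak was listed in HCT15-Pa replicate 2 for H3K23su and in no other library. The 228.4 kb locus was not bare: it held 8 shared H3K23su and 7 shared H3K27ac regions, of which 6 and 4 lay in the 50 kb on either side of the gene. H3K23su peaks covered 8.79 and 6.70 kb in HCT15-Pa and 6.52 and 6.87 kb in HCT15-FR, and H3K27ac peaks 7.59 and 6.52 kb and 7.89 and 6.79 kb, so the lines overlapped for both marks (exact permutation p = 0.667 each). In intron 3 of 13, 47.8 kb into the gene, both marks had an FR-only region. Its H3K23su scores were 4.45 and 3.56 and its H3K27ac scores 3.94 and 4.02, weak peaks that ranked between the 12.4th and 46.8th percentiles of their lists. The other calls in a single line were FR-only H3K27ac regions in introns 3 and 6, and a Pa-only H3K27ac region downstream of the gene that lies nearer to the TSS of R3HCC1.

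Of the 2 laminin chains, LAMA3 had less covered length in HCT15-FR at the first of its 2 promoters. Its first TSS, chr18:21269417 on the plus strand, starts the longer alpha chain, and the second starts the shorter chain that is found in laminin-332 of epithelia. Within 2 kb of the first, H3K23su peaks covered 1022 and 1224 bp in HCT15-Pa and 146 and 326 bp in HCT15-FR, a ratio of 0.210. H3K27ac peaks covered 1145 and 1024 bp in HCT15-Pa and 432 and 340 bp in HCT15-FR, a ratio of 0.356. Both HCT15-FR libraries lay below both HCT15-Pa libraries for both marks, which held for 3.51% of windows with a peak of both marks (8.97% for H3K23su and 13.0% for H3K27ac).

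The scores at the first LAMA3 promoter were lower in HCT15-FR too. For H3K23su they were 5.48 and 5.18 in HCT15-Pa and 3.89 and 3.89 in HCT15-FR, and for H3K27ac 4.95 and 5.35 against 3.99 and 4.81. Because each library still had a peak, the region counted as shared, and it became Pa-only for both marks when a library had to cover 50% of the region, and for H3K23su when the stronger 50% of each list was used. Scaling to list length gave ratios of 0.177 and 0.300. Without HCT15-FR replicate 2 the H3K23su ratio was 0.130, and without any other library it was 0.193 to 0.290.

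At the second LAMA3 promoter, H3K23su peaks covered 700 and 1085 bp in HCT15-Pa and 1050 and 1322 bp in HCT15-FR, and the lines overlapped. These were among the strongest peaks at the 9 genes for this mark, with scores of 8.95 and 10.7 in HCT15-Pa and 10.7 and 11.5 in HCT15-FR, at the 97.8th to 99.1st percentiles of their lists. H3K27ac covered 1355 and 1411 bp in HCT15-Pa and 1564 and 1436 bp in HCT15-FR, a ratio of 1.08 that turned to 0.914 after scaling. The first promoter thus had less covered length in HCT15-FR. At the second, the H3K27ac direction depended on the scaling. The H3K23su ratio there was 1.33, or 1.11 after scaling, with the lines overlapping in each case.

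Inside LAMA3 the calls went both ways. For H3K23su there were 3 Pa-only and 2 FR-only regions, all in introns. The highest-ranking Pa-only region, chr18:21359679-21360147 in intron 11 of 74, had scores of 6.75 and 4.75 in HCT15-Pa, and H3K27ac was shared there. The highest-ranking FR-only region, chr18:21498427-21498832 in intron 60, had scores of 7.07 and 4.52. For H3K27ac, 3 regions were FR-only and 2 Pa-only, of which 1 each lay outside the gene. The FR-only one in intron 23, chr18:21408394-21409354, had scores of 8.96 and 9.08, the highest-ranking H3K27ac call in a single line at any of the 9 genes. Over the 366.8 kb locus the lines overlapped: H3K23su covered 9.96 and 10.1 kb in HCT15-Pa and 9.51 and 10.6 kb in HCT15-FR, and H3K27ac 14.3 and 13.4 kb and 13.9 and 11.9 kb. After scaling, both HCT15-FR libraries lay below both HCT15-Pa libraries, by 1.77 kb for H3K23su and 3.28 kb for H3K27ac.

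**Figure D3:**
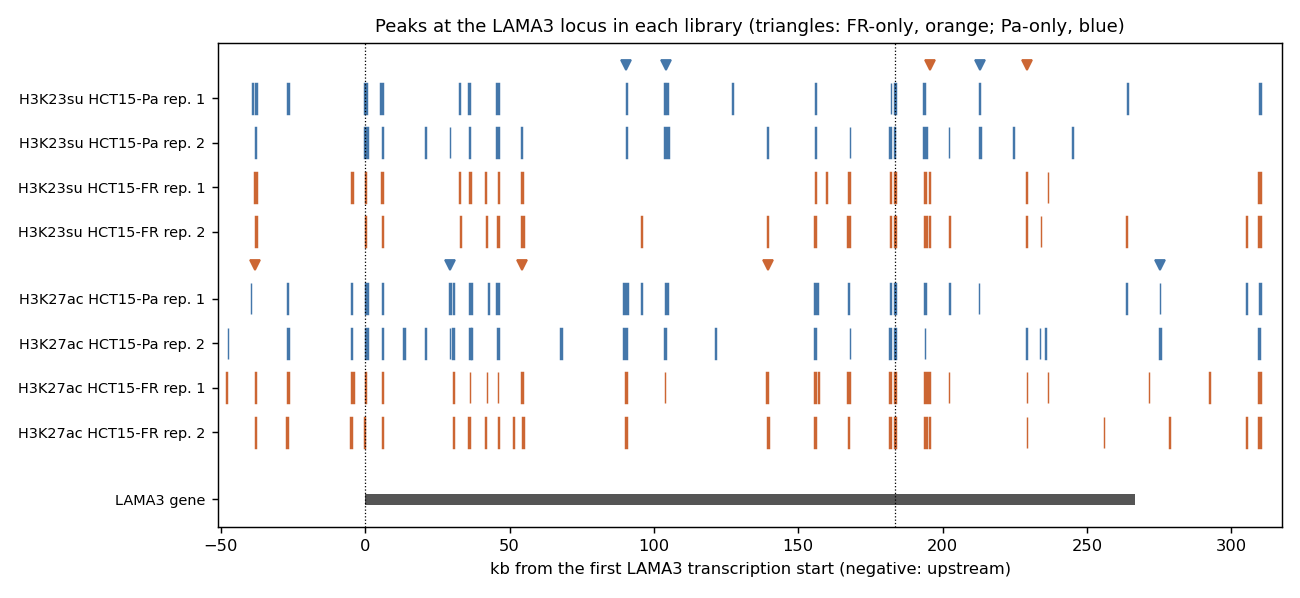
Peaks at the LAMA3 locus in each of the 8 libraries, by distance from the first TSS (horizontal axis, kb); dotted lines mark the first TSS and the second, 183.6 kb downstream, and triangles mark FR-only (orange) and Pa-only (blue) regions. Peaks at the first TSS are narrower in HCT15-FR, and 2 of the 3 Pa-only H3K23su regions lie between the promoters.

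LAMB3, the beta chain that pairs with LAMA3, was the other gene with an FR-only H3K23su region in its promoter window, at chr1:209822758-209823211 in intron 3 of 22. It was a weak and narrow call, with scores of 4.22 and 3.84 and 431 and 146 bp covered, no H3K27ac peak overlapped it, and it lay near the edge of the window, 1.70 kb from a TSS. It dropped out with windows of 1 kb, with the 5′ end of the gene record as the only start, with the stronger 50% of each list and with the 50% coverage rule. Over the window, H3K23su peaks covered 196 and 1032 bp in HCT15-Pa and 1465 and 1152 bp in HCT15-FR, a ratio of 2.13 in which HCT15-Pa replicate 1 stood apart. Without that library the ratio was 1.27, without HCT15-Pa replicate 2 it was 6.68, and after scaling the lines overlapped.

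H3K27ac at the LAMB3 promoter went the other way by a small amount, with 1700 and 1779 bp in HCT15-Pa and 1553 and 1618 bp in HCT15-FR, a ratio of 0.911. Its main region at the TSS, chr1:209825315-209826776, had high scores in all 4 libraries, from 13.4 to 14.8. Over the 137.6 kb locus, H3K23su peaks covered 1.85 and 2.17 kb in HCT15-Pa and 3.31 and 3.37 kb in HCT15-FR, a difference of 1.33 kb that kept its order after scaling (0.861 kb). For H3K27ac the lines overlapped, with 4.59 and 4.79 kb against 4.64 and 5.73 kb.

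The integrin genes had peaks of both marks at their promoters in every library. ITGA2, the alpha subunit of the collagen receptor, had H3K23su peaks over 1048 and 1531 bp in HCT15-Pa and 1683 and 1500 bp in HCT15-FR, and the lines overlapped. H3K27ac covered 1184 and 1076 bp in HCT15-Pa and 1522 and 1723 bp in HCT15-FR, a ratio of 1.44 (1.21 after scaling) without overlap of the lines. Scores of the H3K27ac promoter peak were 5.57 and 7.42 in HCT15-Pa and 9.45 and 11.7 in HCT15-FR. In intron 1 of ITGA2, 19.6 kb into the gene, both marks had an FR-only region: H3K23su at chr5:52304617-52304940 with scores of 3.81 and 5.28, and H3K27ac at chr5:52304514-52304883 with scores of 3.82 and 3.63. A Pa-only H3K27ac region in the same intron scored 3.17 and 3.61.

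ITGA6, the alpha subunit of the hemidesmosome integrin, had promoter windows of like length in both lines. H3K23su covered 1443 and 1671 bp in HCT15-Pa and 1488 and 1754 bp in HCT15-FR, and H3K27ac 1888 and 1554 bp against 1733 and 1839 bp. Both marks had an FR-only region 18.8 kb upstream, between genes: chr2:173272935-173273782 for H3K23su, with scores of 4.73 and 5.41, and chr2:173273012-173273581 for H3K27ac, with scores of 3.48 and 4.70. A Pa-only H3K23su region in intron 11 of 25, chr2:173344925-173345792, scored 5.15 and 5.45. The same intron held an FR-only H3K23su region, chr2:173347626-173347979, with scores of 4.32 and 3.68. An FR-only H3K27ac region in intron 1, chr2:173327577-173328174, scored 4.51 and 3.86. Over the locus, H3K27ac covered 7.43 and 7.17 kb in HCT15-Pa and 9.08 and 9.59 kb in HCT15-FR, and the difference of 2.04 kb kept its order after scaling (0.623 kb). H3K23su covered 6.32 and 6.36 kb in HCT15-Pa and 7.35 and 7.14 kb in HCT15-FR, a difference of 0.909 kb that turned to −0.292 kb after scaling.

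ITGB1, the beta subunit shared by most matrix-binding integrins, had a single region called in 1 line. H3K23su covered 1154 and 1487 bp of its promoter window in HCT15-Pa and 1466 and 1175 bp in HCT15-FR, with the same mean of 1320.5 bp in both lines. H3K27ac covered 1530 and 1525 bp in HCT15-Pa and 1543 and 1553 bp in HCT15-FR, so the lines did not overlap although they differed by a mean of 20.5 bp, a ratio of 1.01 that became 0.854 after scaling. No H3K23su region of the locus was FR-only or Pa-only, 5 regions of each mark were shared, and the single call was an FR-only H3K27ac region in intron 1 (chr10:33239319-33240118, scores 5.09 and 3.49).

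ITGB4, the beta subunit particular to hemidesmosomes, had the widest promoter domain. A single shared H3K23su region, chr17:73716914-73720702, ran from the TSS into the gene, and peaks covered 2251 and 1818 bp of it in HCT15-Pa and 3789 and 3782 bp in HCT15-FR. Within 2 kb of a TSS this gave 1234 and 1272 bp in HCT15-Pa and 2664 and 2657 bp in HCT15-FR, a ratio of 2.12 (1.78 after scaling) with no overlap. The scores went the other way, with 8.27 and 10.9 in HCT15-Pa and 6.34 and 7.06 in HCT15-FR, so the HCT15-FR peaks were wider and had a lower score. H3K27ac at the same promoter covered 2652 and 1913 bp in HCT15-Pa and 2702 and 1950 bp in HCT15-FR, where the libraries grouped by replicate number and not by line.

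Over the ITGB4 locus, H3K23su peaks covered 7.53 and 7.69 kb in HCT15-Pa and 13.8 and 12.3 kb in HCT15-FR, a difference of 5.43 kb and a ratio of 1.71 that kept its order after scaling (3.63 kb). H3K27ac peaks covered 12.3 and 10.7 kb in HCT15-Pa and 14.5 and 13.6 kb in HCT15-FR, and these overlapped after scaling. FR-only calls for H3K23su numbered 2, in introns 4 and 5 of the neighbouring gene SAP30BP, 23.7 and 20.7 kb upstream of ITGB4, in regions where H3K27ac was shared. Of the 4 FR-only H3K27ac regions, 2 lay over exons 16 and 24 of ITGB4 and 2 beyond its end, nearest to the starts of GALK1 and H3-3B, so part of this locus belongs to other genes.

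Counted over the 9 loci, 16 of 153 H3K23su regions (10.5%) and 17 of 164 H3K27ac regions (10.4%) were FR-only, where 7.95% and 9.08% of all regions were. Pa-only regions numbered 5 for each mark, 3.27% and 3.05%, where 5.01% and 4.53% of all regions were. For each mark 7 of the 9 genes had an FR-only region in the locus, against 48.6% and 53.4% of all protein-coding genes. A Pa-only region was present at 3 and 4 genes, against 35.5% and 33.8%. The loci run from 115.2 to 366.8 kb in length, so these gene counts are a description.

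**Figure D4:**
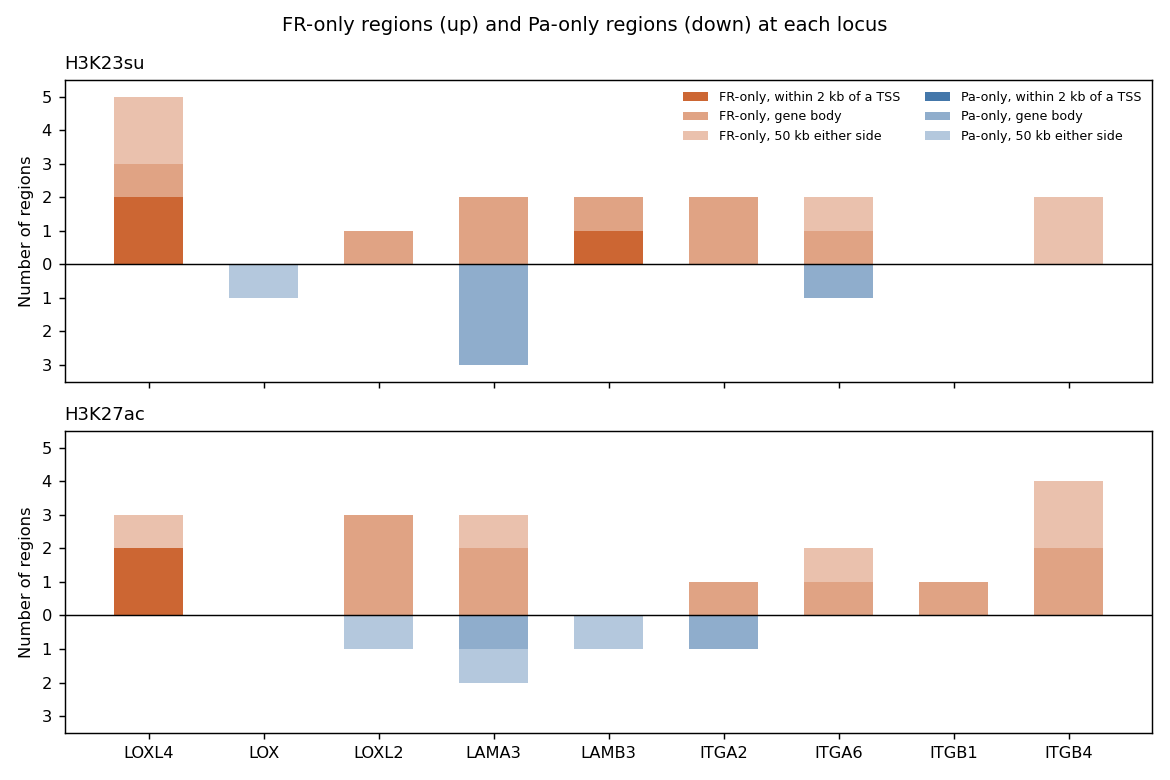
Number of FR-only (upwards) and Pa-only (downwards) regions at each of the 9 loci for H3K23su (top) and H3K27ac (bottom), with shades for regions within 2 kb of a TSS, in the gene body and in the 50 kb on either side. LOXL4 had 5 FR-only H3K23su regions, LAMA3 had 3 of the 5 Pa-only ones, and no gene had a Pa-only region within 2 kb of a TSS.

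At promoters, 2 genes (LOXL4 and LAMB3) had an FR-only H3K23su region and 1 (LOXL4) an FR-only H3K27ac region, against 4.76% and 3.95% of all protein-coding genes. LOXL4 had both, against 1.25%. As the study had already named LOXL4 from these libraries, these shares do not measure how unusual its calls are. None of the 9 had a Pa-only region at a promoter, against 2.85% and 3.30% (1.08% for both marks). A shared region was present at 7 of the 9 promoters for each mark, all but LOX and LOXL2, against 56.5% and 60.9%. The FR-only calls of both marks coincided at 6 of 16 H3K23su regions (37.5%, where the share over the genome was 35.8%), and 4 more fell in shared H3K27ac regions (25.0% against 17.1%). Pa-only calls of both marks coincided at none of 5 H3K23su regions, where the share over the genome was 19.8%, although each of the 5 had an H3K27ac peak of another class.

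By length covered within 2 kb of a TSS, HCT15-FR lay wholly above HCT15-Pa in 3 of the 10 windows for H3K23su (LOXL4, LAMB3 and ITGB4). For H3K27ac it did so in 4 (LOXL4, the second LAMA3 promoter, ITGA2 and ITGB1). The shares of all windows with a peak were 41.4% and 31.1%, and 2 of the 10 windows (LOX and LOXL2) had no peak. After scaling, HCT15-FR lay wholly above in 2 windows for H3K23su (LOXL4 and ITGB4) and in 2 for H3K27ac (LOXL4 and ITGA2), against 21.2% and 12.1% of all windows with a peak. HCT15-FR then lay wholly below in 1 window for H3K23su (the first LAMA3 promoter) and in 5 for H3K27ac (both LAMA3 promoters, LAMB3, ITGA6 and ITGB1), against 25.0% and 39.0%.

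By covered length of the whole locus, both HCT15-FR libraries lay above both HCT15-Pa libraries at 4 loci for H3K23su (LOXL4, LAMB3, ITGA6 and ITGB4) and at 5 for H3K27ac (LOXL4, ITGA2, ITGA6, ITGB1 and ITGB4), against 51.8% and 50.3% of all loci with a peak. After scaling, 3 H3K23su loci (LOXL4, LAMB3 and ITGB4) stayed above and 5 lay below, against 29.6% and 26.3%, and 2 H3K27ac loci (LOXL4 and ITGA6) stayed above and 3 lay below, against 25.3% and 32.1%. The median ratio of HCT15-FR to HCT15-Pa over the 9 loci was 1.14 for H3K23su and 1.11 for H3K27ac, where it was 1.20 and 1.14 over all loci with peaks in HCT15-Pa. Before scaling, the differences at genes other than LOXL4 and ITGB4 were within 2.04 kb of 0 for either mark. After scaling, LAMA3 was at −3.28 kb for H3K27ac and LOXL2 at −2.33 kb for H3K23su, and ITGB4 at 0.322 kb for H3K27ac.

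**Figure D5:**
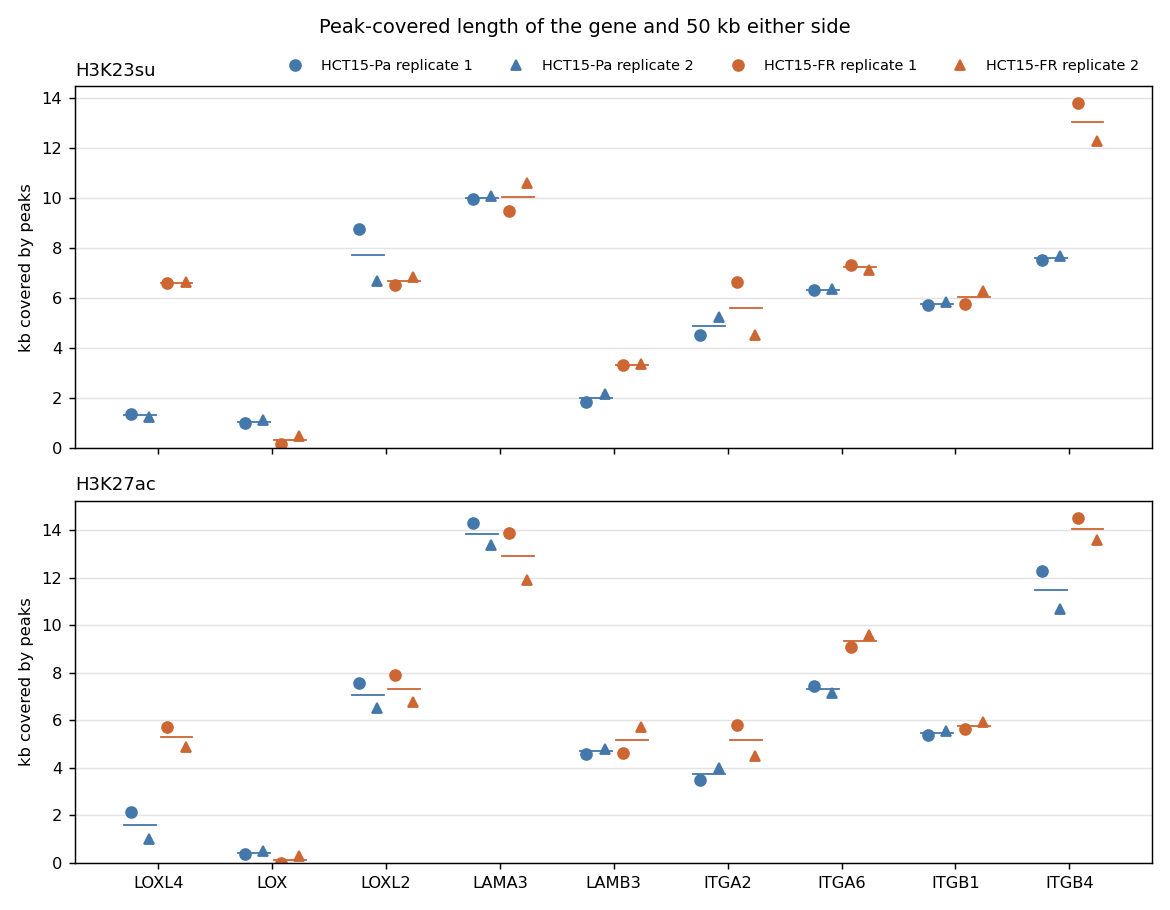
Sequence covered by peaks (kb, vertical axis) in each gene with 50 kb on either side for H3K23su (top) and H3K27ac (bottom); points are libraries and short lines the means of the 2 libraries. LOXL4 and ITGB4 were higher in HCT15-FR for both marks, by 5.31 and 5.43 kb for H3K23su, while LAMA3 and LOXL2 overlapped.

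Among related genes of the same pathway, 48 were looked up: 2 other lysyl oxidases, 10 other laminin chains, 22 other integrin subunits, 4 hemidesmosome or integrin partners and 10 adaptors that link integrins to actin. For H3K23su 1 of them had an FR-only and 3 a Pa-only region within 2 kb of a TSS, against 4.76% and 2.85% of all protein-coding genes. For H3K27ac 3 and 4 did, against 3.95% and 3.30%. An H3K23su promoter peak was present in all 4 libraries for 23 of the 48 and in none for 15, and the corresponding H3K27ac numbers were 27 and 6. In the locus, 29 had an FR-only and 26 a Pa-only H3K23su region, against 48.6% and 35.5% of all genes, and 35 and 28 had the H3K27ac ones, against 53.4% and 33.8%. The median of FR-only minus Pa-only regions per locus was 0 for H3K23su and 1.00 for H3K27ac.

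DST, which encodes a plakin of the hemidesmosome plaque and has many promoters, had the largest excess of FR-only over Pa-only H3K23su regions among these genes, 10, with 2 FR-only and 1 Pa-only H3K23su region and 1 FR-only H3K27ac region at a TSS. PLEC, the plakin that binds ITGB4, had a Pa-only H3K23su and an FR-only H3K27ac region at a TSS, and ITGAV, a subunit of vitronectin receptors, had a Pa-only H3K23su region. For H3K27ac, Pa-only regions lay at the promoters of DST (2 regions, with 4007 and 3906 bp covered over its windows in HCT15-Pa and 2878 and 2445 bp in HCT15-FR), of LOXL1, an elastin-linked oxidase (787 and 1298 bp covered in HCT15-Pa, 479 and 418 bp in HCT15-FR), of the collagen receptor subunit ITGA1 (545 and 146 bp against 0 in both) and of the laminin receptor subunit ITGA7 (243 and 355 bp against 0 in both). The FR-only H3K27ac call at LAMB4 covered 25 bp of its window in a single library. After DST, LAMC3, CD151, TLN2 and FERMT3 had an excess of 3 FR-only H3K23su regions each, and ITGB2, the leukocyte integrin beta chain, had the lowest value, −2.

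The genes nearest to LOXL4 and LAMB3 in promoter covered length were looked up, and a nearest gene exists by construction. LOXL4 and LAMB3 had a promoter peak in all 8 libraries, as 11107 protein-coding genes did, whereas LOX and LOXL2 were among 4508 with none. Over the 8 covered lengths, the genes closest to LOXL4 were MITF, FGF1 and MELTF, at Euclidean distances of 489.5, 546.7 and 621.3 bp. Those closest to LAMB3 were STX4, S100A14 and RPL3, at 457.1, 522.3 and 558.5 bp.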

How the data were processed

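HCT15 cells were profiled by CUT&Tag. Per the labels and methods, the authors aligned reads to hg19 with Bowtie2, filtered them with SAMtools and ran MACS2 on each library separately, choosing broad peaks for H3K27ac. The deposited lists hold peak positions and a −log10 P value, which served for ranks and score filters inside a list. Scores set side by side between lines are unadjusted. The median scores of the H3K23su lists were 4.35 and 4.36 in HCT15-Pa and 4.56 and 4.58 in HCT15-FR. For H3K27ac they were 4.33 and 4.37 in HCT15-Pa and 4.74 and 4.73 in HCT15-FR. Read depth is not in the lists, and the spike-in DNA of the labels does not enter them, so precision is limited by having 2 libraries per line and mark.

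Members and lists were chosen with earlier results of these data known. Genes were taken from GENCODE release 44 lifted to hg19, with starts of basic protein-coding transcripts. Peaks of a mark were merged where they overlapped, and a peak of at least 1 bp in a region counted as present. Covered length was compared by the 2-sided exact permutation test with Benjamini-Hochberg adjustment over 18 tests. Sequences came from the GRCh37 (hg19) FASTA. Analyses used Python 3.11.15, numpy 2.4.6, pandas 2.3.3 and matplotlib 3.10.9, and scripts were tested on simulated peaks. Related genes were named when they had an FR-only or Pa-only region at a TSS, or an extreme excess of H3K23su regions (ties at 3 kept, ties at −1 left out). A rule based on fold changes of RPKM could not be applied to peak lists. PECAM1 had no match and was not used here.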

Additional observations from a re-analysis of the deposited data

Results flagged for a closer look

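The LAMB3 promoter window was picked out because the marks moved in opposite directions, with every HCT15-FR library on the far side of every HCT15-Pa library for each mark. The covered length differed by 694.5 bp (HCT15-FR minus HCT15-Pa) for H3K23su and by −154.0 bp for H3K27ac. The difference between the marks was not tested. The H3K23su value is carried by HCT15-Pa replicate 1, where peaks covered 196 bp against 1032 bp in HCT15-Pa replicate 2. After scaling to list length, the lines overlapped for H3K23su (ratio 1.77), and HCT15-FR stayed below HCT15-Pa for H3K27ac (ratio 0.768).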

How the results depend on the processing

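The limits are 2 libraries per line and mark, no read counts, and calls that rest on the presence of a peak. Using the stronger 50% of each list left 7 H3K23su and 6 H3K27ac FR-only regions at the loci, and FR-only promoters at 1 gene (LOXL4) and 0 genes. It made 1 promoter Pa-only for H3K23su (the first of LAMA3). Requiring 50% of a region to be covered gave FR-only promoters at 1 (LOXL4) and 2 genes (LOXL4 and ITGA2), a Pa-only promoter at 1 gene for each mark (LAMA3) and 8 Pa-only H3K27ac regions. Lists of equal length also gave 8 Pa-only H3K27ac regions, and flanks of 10 kb gave 3. With windows of 1 kb, or the 5′ end of the gene record as the only start, 1 gene (LOXL4) had an FR-only H3K23su promoter. Leaving out a library, which relaxes the call by construction, gave 19 to 36 H3K23su and 21 to 34 H3K27ac FR-only regions, 6 to 24 and 7 to 25 Pa-only regions, and FR-only promoters at 2 to 4 genes for H3K23su (4 without HCT15-FR replicate 1, with ITGA2 and ITGA6 added) and 1 to 2 for H3K27ac. A score minimum common to the lists and merging within 500 bp moved none of these counts by over 1.5 times.

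The median covered length of the 9 loci was 0.847 kb higher in HCT15-FR for H3K23su and 0.394 kb for H3K27ac. These became −0.250 and −0.578 kb after scaling, 0.237 and −0.782 kb with the stronger 50% of each list, and 1.21 and 0.571 kb with flanks of 10 kb. With flanks of 100 kb the H3K27ac value was 0.564 kb. Direction held at LOXL4 and ITGB4 for both marks, at LAMB3 for H3K23su and at ITGA2 and ITGA6 for H3K27ac under every alternative run on locus length. Elsewhere it turned as follows (kb, HCT15-FR minus HCT15-Pa). Scaling gave −1.77 at LAMA3, −0.226 at ITGA2, −0.292 at ITGA6 and −0.794 at ITGB1 for H3K23su, and −0.944 at LOXL2, −0.355 at LAMB3 and −0.659 at ITGB1 for H3K27ac. The stronger 50% gave −0.630 at LAMA3 and −0.305 at ITGA2 for H3K23su, and −1.12 at LOXL2, 0.0115 at LAMA3, −0.264 at LAMB3 and −0.393 at ITGB1 for H3K27ac. Lists of equal length gave −0.412 at LOXL2 for H3K27ac. Flanks of 10 kb gave 0.0715 at LOX and −0.281 at LAMA3 for H3K23su. Flanks of 100 kb gave 0.545 at LOXL2 and −0.823 at ITGB1 for H3K23su, and 0.828 at LOX, −0.573 at LOXL2, 0.0145 at LAMA3 and −0.365 at ITGB1 for H3K27ac. Without 1 library the values ran from −0.526 to 0.546 at LAMA3, −0.368 to 1.79 at ITGA2 and −0.0155 to 0.521 at ITGB1 for H3K23su, and from −0.266 to 0.833 at LOXL2, −1.96 to 0.00350 at LAMA3 and −0.0515 to 1.04 at LAMB3 for H3K27ac. The cause of these turns was not tested.

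Replicate numbers are shared between the lines, but same-numbered libraries did not deviate together over 19785 loci (correlation of deviations, 0.00574 for H3K23su and 0.0106 for H3K27ac). This correlation cannot exclude that they shared a culture or a batch, which the labels do not mention. With the replicate block, the differences stay at 0.847 and 0.394 kb by construction, and the smallest p that 2 pairs allow is 0.5 in the exact sign-flip test, so no call could change.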
